A study of Camelus dromedarius with 4 samples.

Results

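Hypophysiotropic hormones are the peptides with which the hypothalamus drives or restrains the anterior pituitary. The genes described here are 10, chosen by symbol for what they encode: the precursors TRH, CRH, GHRH, SST and GNRH1, the receptors TRHR, CRHR1 and CRHR2, the TRH-degrading enzyme TRHDE and the CRH-binding protein CRHBP. They are 10 of the 18152 rows of a table of season means for the supraoptic nucleus of the dromedary camel, and all 10 have a row in it. The supraoptic nucleus (SON) is a hypothalamic nucleus of large (magnocellular) neurones that make vasopressin (AVP) and oxytocin (OXT) for release from the posterior pituitary. RNA was sequenced from 2 SON libraries of winter and 2 of summer. The donors of both seasons were adult, age-matched, healthy males of the Tergui breed, all of them hydrated when slaughtered, and no drug treatment or genetic change is described for either season. All winter animals were slaughtered in El Oued on a single day and all summer animals in Ouargla on a single day, so season, place and day cannot be told apart. The study's description of its design counts 2 animals per season for RNA sequencing, so p-values measure the spread between animals of a single day and place. In the peptide measurements of the study, a winter sample numbered 3 is described as wrongly isolated, and it is not stated whether it came from the animal of winter replicate 3 sequenced here.

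TRH (thyrotrophin-releasing hormone) is cut from a large precursor as a tripeptide, acts on the receptor TRHR to release thyrotrophin and prolactin, and is destroyed outside cells by TRHDE, a membrane peptidase. CRH (corticotrophin-releasing hormone) acts chiefly on CRHR1 to release corticotrophin, whilst CRHR2 binds the related urocortins better and CRHBP holds CRH and urocortin away from both receptors. GHRH and somatostatin (SST) raise and lower growth hormone release, and gonadotrophin-releasing hormone (GNRH1) drives the reproductive axis. The neurones that send these peptides to the pituitary portal blood are mostly parvocellular (small) and lie in other hypothalamic nuclei, but most of the peptides are also made as local transmitters in other neurones.

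Levels are given as normalized reads, which are read counts divided by a size factor of the library. The deposited table holds the mean of the 2 libraries of each season, and each mean is a sum of whole reads, so that the reads of both libraries could be solved for. The solution was single for all 9 of the genes that have means. The libraries are called A (larger size factor) and B (smaller) within each season, with size factors of 1.33 and 0.946 in winter and 0.922 and 0.877 in summer. A and B do not name the replicates of the labels. Gene lengths are not part of these values, so levels are compared between libraries and not between genes.

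The depth of the 4 count files was 4379162 to 6902037 reads on 64989 gene models. Summer replicate 2 of the labels, with 5520242 reads, had a read on 40178 gene models, against 49320 to 52456 in the others. The labels do not tie it to summer library A or B. It was the deeper summer file, against 4406533 reads in replicate 1, and summer A has the larger size factor. In this order it would be summer A, though the summer size factors, 0.922 and 0.877, are close. Genes without a read were not counted per recovered library. The summer libraries stood apart from each other. Over the 7641 named genes tested, the log2 difference between them had an SD of 1.45, against 0.74 between the winter libraries and 0.88 to 1.14 between libraries of different seasons. The common biological coefficient of variation was 0.46. As a check of the tissue, putative AVP had a season mean of 2560 normalized reads in winter and 11822 in summer and OXT 621 and 592, both uncertain where reads are shared between these similar genes. In bulk tissue, fewer cells of a type and less RNA per cell cannot be told apart.

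TRH was higher in winter and its receptor TRHR was higher in summer. These were the 2 genes of the 10 that passed the rule of the study's methods, a difference of more than 2-fold with an unadjusted p under 0.05, in edgeR's quasi-likelihood test across the 7641 named genes that had a single solution for their reads and reached a mean of 10 in either season. Of the 10 genes 6 could be tested, 3 had means under 10 in both seasons and GHRH had no means. Across all genes tested 0.851% passed the rule as higher in winter, 0.824% as higher in summer and 1.68% in either direction. None of the 10 passed a Benjamini-Hochberg adjusted p of 0.05, and neither did any gene tested with edgeR's quasi-likelihood test, where 152 had an unadjusted p under 0.05, whilst 1 passed with edgeR's exact test and 1 with DESeq2. Both TRH and TRHR therefore fail the correction for multiple tests.

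**Figure D1:**
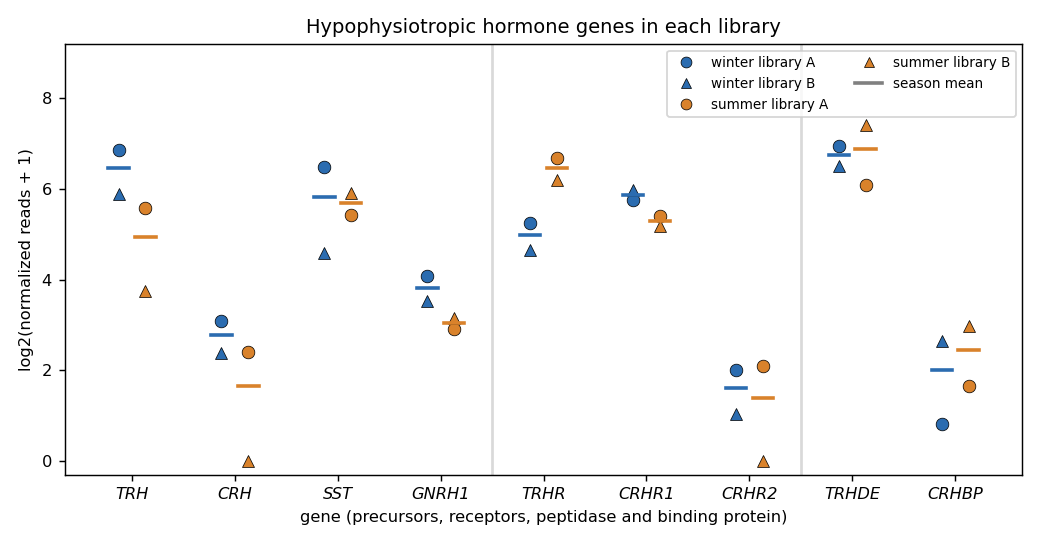
Level of each hypophysiotropic hormone gene in each library, as log2(normalized reads + 1), for the 9 genes with means. Blue symbols are winter and orange symbols summer, circles are library A and triangles library B, and bars are season means. TRH was higher in both winter libraries than in both summer libraries, TRHR was higher in both summer libraries, and the symbols of SST and TRHDE overlap between the seasons.

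Among the hormone precursors, TRH was read 154 times in winter library A and 55 times in winter B, against 43 times in summer A and 11 times in summer B. The levels were 116 and 58.2 normalized reads (winter A and B) and 46.6 and 12.5 (summer A and B). The seasons did not overlap, but winter B and summer A were close, winter A was the highest library and summer B the lowest. The season means were 87.2 in winter and 29.6 in summer, 2.95-fold apart. The log2 fold change, winter over summer, was 1.56 ± 0.63 (SE, 95% interval 0.085 to 3.04), with an unadjusted p of 0.0407 and an adjusted p of 0.982 in edgeR's quasi-likelihood test. By this p TRH was at rank 107 of the 7641. Without winter library A the log2 fold change was 0.96, with an unadjusted p of 0.310 in the same edgeR test, and without summer library B it was 0.91, with a p of 0.0686, so either library alone decides that TRH passes the rule. The log2 fold change of TRH was 1.96 without winter B and 2.79 without summer A, the latter from a fit whose spread comes from the winter pair alone.

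SST did not differ between the seasons beyond the spread of the libraries. Its reads numbered 117 in winter A and 22 in winter B, and 39 in summer A and 52 in summer B, which is 88.3 and 23.3 normalized reads for winter and 42.3 and 59.3 for summer. The winter libraries were 3.79-fold apart and enclosed both summer libraries. The season means were 55.8 and 50.8, and the log2 fold change was 0.18 ± 0.62 (SE, 95% interval -1.28 to 1.63), with an unadjusted p of 0.787 and an adjusted p of 0.986 in edgeR's test. This interval does not exclude a 2-fold difference in either direction. Without winter library A the log2 fold change of SST was -1.12, with an unadjusted p of 0.249 in edgeR's test.

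GNRH1 was a low gene, with 21 reads in winter A, 10 in winter B, 6 in summer A and 7 in summer B. Its normalized reads were 15.8 and 10.6 (winter) and 6.51 and 7.98 (summer), and the seasons did not overlap. It passed the filter on low means only through winter, where its mean was 13.2 against 7.24 in summer. The log2 fold change was 0.89 ± 0.84 (95% interval -1.07 to 2.84) and did not pass edgeR's test, with an unadjusted p of 0.323 and an adjusted p of 0.982.

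CRH, the central precursor of the stress axis, was near the limit of detection. It was read 10 times in winter A, 4 times in winter B, 4 times in summer A and 0 times in summer B, at 7.55, 4.23, 4.34 and 0 normalized reads. A count of 0 in summer library B allows up to 3 reads, 3.42 normalized reads there, which covers counting error only. The level of winter B lay below that of summer A, so the seasons overlapped, and with season means of 5.89 and 2.17 CRH was under the filter and not tested. For GHRH the row holds no mean in either season, so no level is given.

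Among the receptors, TRHR was read 49 times in winter A and 23 times in winter B, against 94 times in summer A and 64 times in summer B. The levels were 37.0 and 24.3 normalized reads (winter) and 102 and 72.9 (summer). Every summer library was above every winter library, and the lowest summer library was well above the highest winter library. The season means were 30.6 in winter and 87.4 in summer, 2.85-fold higher in summer, and within a season libraries A and B were 1.52-fold (winter) and 1.40-fold (summer) apart. The log2 fold change, winter over summer, was -1.49 ± 0.44 (SE, 95% interval -2.52 to -0.46), with an unadjusted p of 0.0108 and an adjusted p of 0.982 in edgeR's quasi-likelihood test. By this p TRHR was at rank 10 of the 7641 genes tested. With each library left out in turn it lay between -1.84 and -1.24, and without winter library B (-1.24, an unadjusted p of 0.0911 in edgeR's test) TRHR no longer passed the rule. Without summer library B the log2 fold change of TRHR was -1.72, again with the spread from the winter pair alone.

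TRHR is best known from thyrotrophs and lactotrophs of the anterior pituitary, and CRHR1 from its corticotrophs, though both are also made in brain neurones. The 4 markers fixed for anterior pituitary or pars tuberalis all had means in the SON. Their summed season means were 1350 normalized reads in winter and 709 in summer, mostly from growth hormone (GH1, 1132 and 464). Prolactin (PRL) had 170 in winter and 213 in summer. Within summer PRL had 298 normalized reads in library A, where TRHR was highest too, and 128 in library B. Its winter reads had more than a single solution. The glycoprotein hormone alpha subunit (CGA) had 35.5 and 55.0 normalized reads in winter libraries A and B and 8.68 and 47.9 in summer libraries A and B, with its lowest level in the summer library where TRHR was highest. The thyrotrophin beta subunit (TSHB), which defines thyrotrophs, had 6 reads in winter A, 7 in summer B and 0 in the others. GH1 and CGA had the higher mean in winter, as CRHR1 did, and PRL and TSHB in summer, as TRHR did. The part of these cells in the levels of TRHR and CRHR1 was not tested.

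CRHR1 was read 70 times in winter A, 59 times in winter B, 38 times in summer A and 31 times in summer B. Its 52.8 and 62.4 normalized reads in winter lay above the 41.2 and 35.3 of summer in both libraries, with little spread within a season. The season means of 57.6 and 38.3 were 1.51-fold apart. The log2 fold change was 0.58 ± 0.44 (95% interval -0.44 to 1.61), with an unadjusted p of 0.225 and an adjusted p of 0.982 in edgeR's test, so it passed neither part of the rule.

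CRHR2, the urocortin receptor, had 4 reads in winter A, 1 in winter B, 3 in summer A and 0 in summer B. These lie at or near the 3 reads that a count of 0 allows in a library, and no season difference was detectable at this depth.

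TRHDE, the enzyme that ends the action of TRH, was read 163 times in winter A, 85 times in winter B, 62 times in summer A and 148 times in summer B. Its normalized reads were 123 and 89.9 (winter) and 67.2 and 169 (summer), and the summer libraries, 2.51-fold apart, enclosed both winter libraries. The season means were 106 and 118. The log2 fold change was -0.14 ± 0.47 (95% interval -1.24 to 0.97), with an unadjusted p of 0.777 and an adjusted p of 0.986 in edgeR's test. CRHBP, which sequesters CRH, had 1 read in winter A, 5 in winter B, 2 in summer A and 6 in summer B, with season means of 3.02 and 4.50 normalized reads, under the filter. In both seasons library B had the higher CRHBP level, and the seasons overlapped.

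**Figure D2:**
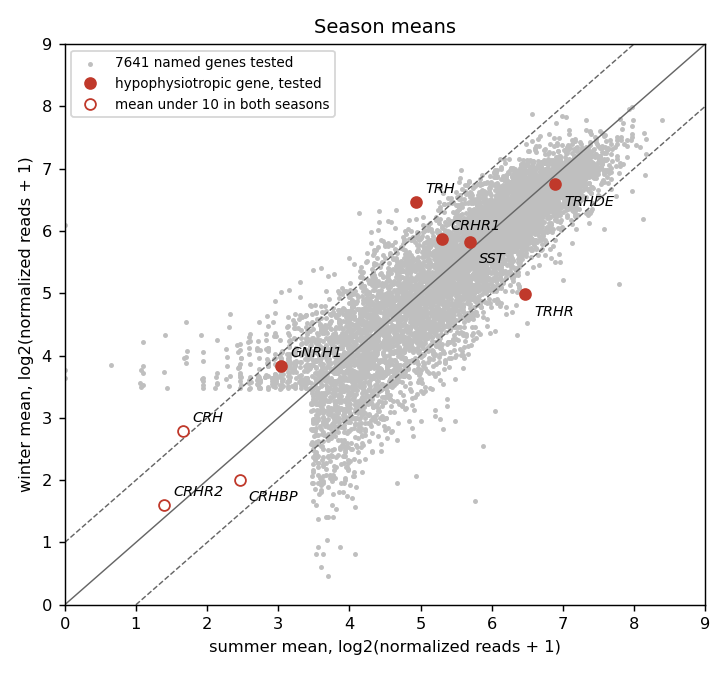
Winter mean against summer mean of each named gene tested (grey, 7641 genes) and of the hypophysiotropic hormone genes (red), both axes as log2(normalized reads + 1). The solid line marks equal means and the dashed lines a 2-fold difference. TRH lies above the upper dashed line and TRHR below the lower one, and open circles are CRH, CRHR2 and CRHBP, which had means under 10 in both seasons and were not tested.

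The libraries of the seasons did not overlap in 4 of the 6 genes tested, TRH, GNRH1 and CRHR1 with winter above and TRHR with summer above. Across all genes tested this was so for 30.5%, with 13.3% for winter above and 17.2% for summer above. The median log2 fold change of the 6 was 0.38 beside -0.11 for all genes tested. One of the 6, GNRH1, entered through its winter mean alone, and these counts and medians describe the genes and test nothing.

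The ratio of TRH to TRHR in normalized reads was 3.14 and 2.39 in winter libraries A and B and 0.457 and 0.172 in summer libraries A and B. These are ratios of read counts of genes of different length, so only their order among libraries can be read. Both winter ratios lay above both summer ratios, which follows from the opposite directions given above and is no further result. The ratio of TRHDE to TRH was 1.06 and 1.55 in winter and 1.44 and 13.5 in summer. It was high in summer library B alone, which had the lowest TRH and the highest TRHDE level of the 4 libraries, whilst in summer library A it lay between the winter values.

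**Figure D3:**
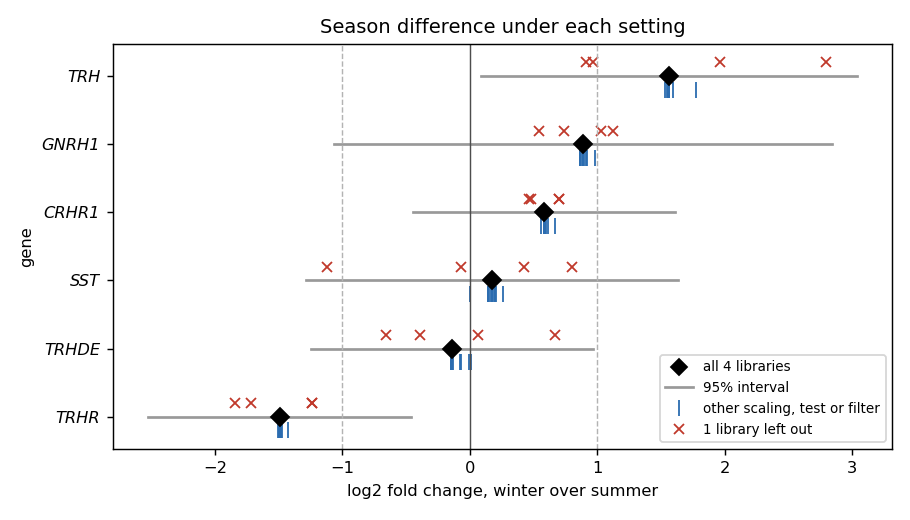
Log2 fold change, winter over summer, of the 6 genes tested. Diamonds with grey lines are the estimates from all 4 libraries with their 95% intervals, blue ticks are other scalings, tests and filters, and red crosses leave out 1 library each. For TRH the crosses run from 0.91 to 2.79 and for TRHR from -1.84 to -1.24, whilst those of SST and TRHDE fall on both sides of 0.

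The genes whose pattern over the 4 libraries was most like that of TRH were CBLN1, ZFP41, CLIC3, TRAIP and CYR61, measured by the Euclidean distance of log2(normalized reads + 1) centred per gene. The distances were 0.22 for CBLN1, 0.44 for ZFP41, 0.61 for CLIC3, 0.67 for TRAIP and 0.71 for CYR61, against a median of 2.51 for all tested genes. A distance under 1 was found for 0.327% of tested genes. CBLN1, which encodes the secreted synaptic protein cerebellin 1, was read 129 times in winter A, 39 times in winter B, 29 times in summer A and 8 times in summer B. Its 97.3 and 41.2 normalized reads in winter against 31.4 and 9.12 in summer follow the order of TRH, with winter A highest and summer B lowest. CBLN1 had a log2 fold change of 1.78, with an unadjusted p of 0.0341 in edgeR's test, and was the one of the 5 that passed the rule. Likeness over 4 points that share the same libraries is a description, and any gene like TRH has a season difference of the same direction.

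Around these genes, 7 companion lists of 58 genes covered the axes they belong to. The fit could test 23 of the 58, and 0 passed the rule in either direction with edgeR's quasi-likelihood test, the lowest unadjusted p being 0.0636. The count was also 0 with edgeR's exact test, DESeq2 and limma-voom. Of the remaining genes 13 had means under 10 in both seasons, 13 had more than a single solution for their reads, 8 had no mean and 1 had no row.

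In the TRH axis, 4 of 9 genes were tested and 0 passed. PGPEP1, a cytosolic peptidase that removes the pyroglutamate of TRH, had season means of 93.2 in winter and 101 in summer. The thyroid hormone transporter SLCO1C1 had 117 and 152, and the thyroid hormone receptor THRA, whose reads had several solutions, had 186 and 131. In the CRH family and stress axis 1 of 10 genes was tested and 0 passed. That gene, HSD11B1, which regenerates active glucocorticoid, had 106 in winter and 99.4 in summer and was named here because it was the one tested. The glucocorticoid receptor NR3C1 had season means of 308 and 319, and its co-chaperone and target FKBP5 had 139 in winter and 264 in summer, both without a test.

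In the GH axis 4 of 9 genes were tested and 0 passed. The growth hormone receptor GHR had season means of 115 in winter and 176 in summer, the somatostatin receptor SSTR2 had 20.9 and 13.0, and the somatostatin-like precursor CORT had 8.30 and 10.7. In the GnRH axis 3 of 9 were tested and 0 passed. The neurokinin B receptor TACR3 had 71.8 and 67.5, its ligand precursor TAC3 had 10.4 and 7.41, and the kisspeptin receptor KISS1R had 10.3 and 5.62.

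In peptide precursor processing 3 of 10 genes were tested and 0 passed. The granule protein CHGA had season means of 828 in winter and 553 in summer, the carboxypeptidase CPE had 625 and 563, and the amidating enzyme PAM, needed for the amide end of TRH, CRH and GnRH, had 557 and 529, all 3 without a test. PCSK1, a convertase that cuts the TRH precursor, was singled out after its values were seen because it had the lowest p of the 23. It had 41.5 and 24.3 normalized reads in winter against 82.4 and 55.9 in summer, a log2 fold change of -1.05 with an unadjusted p of 0.0636 in edgeR's test, not past the rule.

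Dopamine, which holds back prolactin, was covered by 5 genes, of which 3 were tested and 0 passed. Tyrosine hydroxylase (TH) had season means of 56.8 and 46.2, the decarboxylase DDC had 34.5 and 30.2, and the vesicular transporter SLC18A2 had 34.4 and 26.2. Of the 6 hypothalamic transcription factors listed with parvocellular neurones, 5 were tested and 0 passed. ARNT2, the untested one, had season means of 1108 and 1048, SIM2 had 57.1 and 47.8, and SIM1, needed for TRH and CRH neurones to form, had 38.6 and 56.3. LHX5, named after its values were seen, had 51 reads in winter A, 40 in winter B, 0 in summer A and 18 in summer B, with an unadjusted p of 0.0758 in edgeR's test. After TMM scaling LHX5 passed the rule, with an unadjusted p of 0.0470 and a log2 fold change of 2.05.

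**Figure D4:**
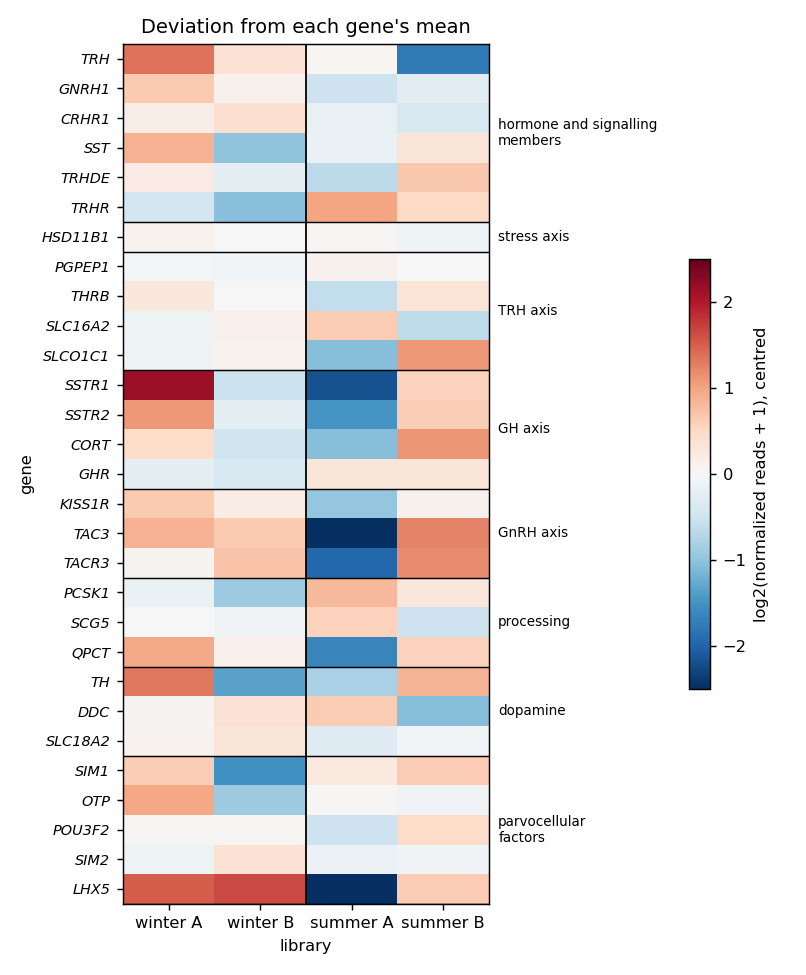
Deviation of each tested gene from its own mean over the 4 libraries, in log2(normalized reads + 1), for the 6 hypophysiotropic genes and the 23 tested companion genes, with red above and blue below the mean. Columns are libraries, and the vertical line parts winter from summer. TRH is above its mean in winter A and below it in summer B, and TRHR has the opposite sides in winter and summer.

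Winter library A, where TRH and SST were highest, also had the highest level of the lateral hypothalamic marker PMCH. The summed normalized reads of PMCH and HCRT, precursors made by lateral hypothalamic neurones, were 152 and 10.6 in winter libraries A and B and 26.0 and 9.12 in summer libraries A and B. Both markers were measured, HCRT with 0 to 5 reads a library, so the sum is mostly PMCH. TH was likewise highest in winter A, with 98.9 and 14.8 normalized reads in winter against 21.7 and 70.7 in summer. SIM1 had 63.4 and 13.7 in winter and 48.8 and 63.8 in summer, with about equal levels in winter A and summer B. The lateral hypothalamic sum was lowest in summer library B, where TRH was lowest too. It was almost as low in winter B, where TRH, at 58.2 normalized reads, was above both summer libraries. The part of a different share of neighbouring hypothalamus in the levels of TRH and SST was not tested. Winter replicate 2 had 6902037 reads and replicate 3 had 4379162, and the size factors were 1.33 for winter A and 0.946 for winter B. In this order winter A would be replicate 2 and winter B replicate 3, though the labels do not state it. The part of the doubt about a winter sample given above was not tested either.

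Other marker lists gave the makeup of the samples in summed season means. The 12 lists held 33 genes, PMCH and CGA among them. Of the 12 that could be tested 0 passed the rule in edgeR's quasi-likelihood test, and 0 had an unadjusted p under 0.05. Neurone markers summed to 419 in winter and 240 in summer, higher in winter as the means of TRH, GNRH1 and CRHR1 were, whilst TRHR was higher in summer. Astrocyte markers summed to 15117 and 25676, mostly GFAP, and oligodendrocyte markers to 31743 and 29302. Microglial markers summed to 1170 and 1343, endothelial ones to 581 and 536, and ependymal ones to 32.4 and 61.8. Arcuate nucleus markers summed to 34.3 and 39.2 and the suprachiasmatic marker with a mean to 24.4 and 37.7, whilst the choroid plexus marker TTR had no mean. Whether these shares bear on the hormone genes was not tested.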

How the data were processed

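RNA from 4 SON libraries (winter replicates 2 and 3, summer replicates 1 and 2 in the labels) was prepared by the authors as stranded total RNA libraries after removal of ribosomal RNA, aligned with TopHat to a dromedary assembly they had made, and counted with HTSeq. Symbols were assigned by similarity, so a symbol can stand for a fragment or a related gene. The deposited counts are raw reads per gene model, without names, and were used for depth only (20.7% to 27.8% of tallied alignments fell on gene models). The authors also deposited a signal per symbol, the mean over a season's libraries of counts scaled by DESeq size factors, and 2 columns of their own comparison (an edgeR fold ratio and p-value), which were not used. Versions of their tools are not given in the sources used here.

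Of 18152 symbols 16053 had means, and 100% of these were sums of whole reads. High means have many solutions and could hardly fail this check, so only low means bear on it. The reads had a single solution for 9882, mostly low genes, and 7641 of them reached a mean of 10 in either season. These were compared in edgeR 4.0.16 under R 4.3.3 (glmQLFit with legacy set to FALSE, glmQLFTest, library sizes from the size factors) and adjusted by the Benjamini-Hochberg method. DESeq2 1.42.0, limma 3.58.1 (voom), other scalings, filters and folds, and each library left out were alternatives. The 10 genes and all lists were chosen with earlier results of these data known. The text names all 10 genes, any companion gene past the rule or else up to 3 per list by mean level, and the 5 genes most like TRH. The values of 1 gene that this names are not reported here. An exact permutation test (two-sided) of 2 against 2 libraries can give no p under 0.333. Floors of 3 reads cover counting error only. Scripts were tested on simulated data, and figures were drawn with matplotlib 3.10.9.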

Additional observations from a re-analysis of the deposited data

How the results depend on the processing

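TRH and TRHR kept their direction in every alternative run, at 1.53 to 1.77 and -1.51 to -1.43 (log2, winter over summer) over other scalings, tests and filters. Both stayed past the rule in these, except at a fold threshold of 3, where TRH at 1.56 and TRHR at -1.49 were under that fold and 0 of the 10 genes passed. With each library left out, TRH lay between 0.91 and 2.79, TRHR between -1.84 and -1.24, and 1 to 2 of the 10 genes passed. SST was -0.00056 with limma-voom, -1.12 without winter A and -0.068 without summer A, within -1.12 to 0.80. TRHDE was 0.0071 with limma-voom, 0.063 without winter B and 0.67 without summer B, within -0.66 to 0.67. For these the cause was not tested. CRHR1 and GNRH1 kept their direction in all that were run, and GNRH1 is not in the fit that needs a mean of 10 in both seasons.

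Of all genes, 128 passed the rule, against 60 with DESeq2, 83 with limma-voom, 79 with a mean of 10 in both seasons and 66 at a fold threshold of 3, the last 2 from fewer genes able to pass. The share higher in winter was 50.8%, and 72.5% after scaling to total reads. The direction across all genes tested also depended on the summer library kept. Their median log2 fold change, winter over summer, was -0.16 without summer A and 0.16 without summer B, against -0.11 with all libraries. Leaving out a library gave 35 to 1158 genes past the rule (35 without winter A, 50 without winter B, 1105 without summer A, 1158 without summer B) and 0 to 257 past the adjusted threshold, which 1 passed with the exact test and 1 with DESeq2. In those fits the lone library is assumed to vary like the pair of the other season. Companion genes past the rule numbered 1 with TMM, RLE and total-read scaling (LHX5) and 0 to 9 without a library. No paired analysis was possible because the animals were slaughtered in their own season, so the seasons hold different animals. Solving for other reads was not run, since all 9 of the genes with means had a single solution. The 2 libraries per season and counts under 10 limit CRH, CRHR2 and CRHBP most.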

Other observations

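Several companion genes had their lowest level in summer library A, where TRHR was highest and TRH was close to winter library B. They were picked after their values were seen, and the share of all genes tested that were lowest there was not counted. The summer libraries stood apart from each other across all genes tested, so these low levels cannot be called particular to the genes named. SSTR1, a somatostatin receptor, had 25 reads in winter A, 2 in winter B, 0 in summer A and 5 in summer B. TAC3 had 15 reads in winter A, 9 in winter B, 0 in summer A and 13 in summer B, and its receptor TACR3 was read 74, 83, 12 and 107 times in the same order. QPCT, the enzyme that makes the pyroglutamate end of TRH and GnRH, had 124 and 69.8 normalized reads in winter against 19.5 and 94.6 in summer. In each of these 4 genes the levels of the seasons overlapped, and none passed the rule with edgeR's quasi-likelihood test. No member of the 10 had its lowest level over the 4 libraries there except TRHDE and GNRH1, at 67.2 and 6.51 normalized reads.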
